A study of Mus musculus with 32 samples.

Results

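The libraries described here measured what Cre does to NFKBIZ flox chondrocytes that were not given IL-1b, so that the resting cells could be compared before any inflammatory stimulus. They were chosen by their labels alone, as the libraries with genotype NFKBIZ flox, treatment GFP or Cre and no IL-1b, and there were 4 of them among the 32 libraries of the series. All were total RNA from primary sternal chondrocytes of C57BL/6 mice, isolated from newborn pups and not passaged, in which part of Nfkbiz is flanked by loxP sites. GFP cultures (2 libraries) received an adenovirus that expresses eGFP, and Cre cultures (2 libraries) received an adenovirus that expresses Cre together with eGFP. Infection lasted 24 h and was followed by 24 h in medium without IL-1b. The same line was also given IL-1b (10 ng/mL) for the last 24 h, in 2 GFP and 2 Cre libraries. LDHA flox and NAMPT flox chondrocytes received the same viruses. Wild-type chondrocytes that were left untreated and received no virus (2 libraries) are used below for comparison.

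No NFKBIZ flox culture without virus was analysed here, so within this line the loss of Nfkbiz, the presence of Cre and a difference between the virus preparations cannot be told apart. The labels do not say whether the 2 libraries of a group came from separate animals or cultures. The p-values therefore measure only the spread between these libraries, which may be technical. Because the RNA came from whole cultures, fewer cells making a transcript and less transcript per cell cannot be told apart either.

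Nfkbiz encodes IκB-ζ, an atypical nuclear member of the IκB family. Most IκB proteins hold NF-κB in the cytoplasm, whereas IκB-ζ is made mainly after NF-κB has been activated and works in the nucleus, where it binds NF-κB subunits at a second wave of inflammatory promoters. In macrophages and keratinocytes it is known for its part in the expression of Il6, Lcn2 and related genes. Chondrocytes are the cells that build cartilage, and IL-1b turns them from making collagen and proteoglycan towards making cytokines and matrix-degrading enzymes.

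The 4 libraries held 22540627 to 25632928 counts. The log2 difference between the 2 GFP libraries had an SD of 0.198 over 10655 genes, and that between the 2 Cre libraries an SD of 0.236. All 10 chondrocyte markers passed the filter, with a summed level of 62380 to 80500 CPM, which are counts scaled to the size of each library. The marker sums are CPM without TMM scaling. Levels of single genes below are TMM-normalized CPM, scaled over 26 libraries. Markers of other cell types summed to lower levels, and none of those tested was called. No epithelium marker passed the filter, and only 2 of 9 skeletal muscle, 2 of 6 erythroid and 3 of 7 endothelium markers did. The summed levels were 391 to 593 CPM for osteoblast markers, 583 to 790 for fibroblast and perichondrium, 65.5 to 74.5 for adipocyte, 64.2 to 85.6 for skeletal muscle, 27.2 to 35.4 for macrophage and leukocyte, 2.84 to 4.92 for endothelium with Cldn5 at 0 counts in all 4 libraries, 0.765 to 2.03 for erythroid cells and 0.668 to 1.23 for epithelium. The osteoblast and fibroblast sums, which share Col1a1, were high in GFP replicate 2 and Cre replicate 1. They were low in GFP replicate 1 and Cre replicate 2, so they did not separate GFP from Cre.

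Cre came with few called changes in resting NFKBIZ flox chondrocytes. Of 15356 genes tested, 40 were called between Cre and GFP (0.260%), by edgeR's quasi-likelihood test at a Benjamini-Hochberg adjusted p of 0.05 or less. Of these, 17 were higher (0.111%) and 23 were lower (0.150%) in Cre. In all 40 the 2 Cre libraries lay on one side of the 2 GFP libraries, as they did for 34.8% of all genes tested. The lowered genes moved much further than the raised ones. Of the 23 lowered genes 13 fell by 10-fold or more, while the raised genes went up by 1.43 to 5.34-fold and 6 of them by 2-fold or more. With DESeq2 71 genes were called, 39 higher and 32 lower, and all 40 were among them. Leaving out any 1 of the 4 libraries left 18 to 21 of the 23 lowered genes called, but only 2 or 3 of the 17 raised genes without GFP replicate 1, GFP replicate 2 or Cre replicate 1, and 8 of them without Cre replicate 2.

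Nfkbiz itself (chr16:55811375-55838899, minus strand, GRCm38) was measured at 16.0 and 17.0 CPM in the GFP libraries and at 9.63 and 8.25 CPM in the Cre libraries. The Cre libraries were the lower ones and the groups did not overlap. The log2 fold change was -0.89 ± 0.12 (SE, n = 2 per group, edgeR adjusted p = 0.00385), which leaves 53.8% of the GFP level. The counts cover the whole gene, so reads from exons outside the loxP sites are included, and transcript with and without the deleted part cannot be told apart. Without GFP replicate 2 the log2 fold change was -0.86 with an edgeR adjusted p of 0.068, and without Cre replicate 2 it was -0.80 with an adjusted p of 0.0504, so the call rested on those libraries. Untreated wild-type chondrocytes, which received no virus, had 16.3 and 9.39 CPM, so the 2 wild-type libraries differed from each other by about as much as Cre from GFP. With IL-1b the same line had 236 and 230 CPM in GFP and 29.5 and 32.6 CPM in Cre, and the fall there was larger (log2 fold change -2.93, difference -2.03, edgeR adjusted p of the difference = 1.1e-05). In NAMPT flox chondrocytes, where Nfkbiz is intact, Cre also came with less Nfkbiz (log2 fold change -0.50, edgeR adjusted p = 0.0085), and in LDHA flox chondrocytes the log2 fold change was 0.09 without a call. The fall in NFKBIZ flox was larger than the mean of the other lines (difference -0.68, edgeR adjusted p = 0.019). None of the 9 other named genes tested within 500 kb of Nfkbiz (Nxpe3, Cep97, Rpl24, Zbtb11os1, Zbtb11, Pcnp, Trmt10c, Senp7 and Impg2) was called.

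Most lowered genes other than Nfkbiz had more transcript under the GFP virus than in uninfected wild-type cells, and far less of it under Cre. Tmem130 (chr5:144735915-144761649, minus strand), which encodes a transmembrane protein, had 402 and 496 CPM in GFP and 0.182 and 0.0917 CPM in Cre, from 9079 and 11776 counts against 4 and 2. Its log2 fold change was -11.63 ± 0.26 (SE, edgeR adjusted p = 8.6e-11), and untreated wild-type cells had 0.120 and 0.186 CPM. Both Cre libraries thus lay at the level of wild-type cells without virus. Trrap, which encodes a scaffold protein of histone acetyltransferase complexes, is the next gene along (chr5:144768092-144859778, plus strand). Trrap had 562 and 688 CPM in GFP and 270 and 228 CPM in Cre, a log2 fold change of -1.34 ± 0.13 (SE), and 246 and 256 CPM in wild type.

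Htra2 (chr6:83051266-83055273, minus strand), a mitochondrial serine protease, had 1082 and 1186 CPM in GFP and 21.5 and 20.1 CPM in Cre (log2 fold change -5.78 ± 0.14 SE, edgeR adjusted p = 8.6e-11). Wild-type cells had 42.4 and 20.2 CPM. Reads on Htra2 may include those of Loxl3 and Aup1 on the other strand, since it is not stated whether strand was used in counting. Zan, which encodes zonadhesin, a sperm membrane protein, had 57.0 and 68.9 CPM in GFP against 0.137 and 0.183 CPM in Cre (log2 fold change -8.58 ± 0.22 SE). It overlaps Ephb4 on the other strand. The GFP level was far above the 0.270 and 0.334 CPM of wild-type cells, which lay above both Cre libraries.

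Fem1a, a substrate adaptor of a ubiquitin ligase, had 270 and 323 CPM in GFP and 57.1 and 59.6 CPM in Cre (log2 fold change -2.36 ± 0.12 SE), beside 61.4 and 52.4 CPM in wild type. Rab3d, a small GTPase of secretory vesicles, had 36.8 and 50.2 CPM in GFP and 2.10 and 2.20 CPM in Cre. Lipg, the endothelial lipase, had 27.5 and 30.9 CPM in GFP and 1.55 and 1.33 CPM in Cre. In each of these the 2 Cre libraries lay close together, below both GFP libraries. Nat8f5, Bcas1, Insm2 and Vps37d had GFP levels of 5.76 to 34.3 CPM and Cre levels of 0.138 to 2.61 CPM. Ifrd2, Nmnat3, Hdac4, Wdr26 and Madd fell less, to 25.8%, 31.2%, 34.5%, 56.3% and 58.1% of their GFP level. Nmnat3 makes NAD in mitochondria and Hdac4 is a histone deacetylase that restrains chondrocyte hypertrophy. Bcas1 and Hdac4 overlap genes on the other strand.

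Several of these genes were barely detected in Cre. Of the lowered genes 8 had under 10 counts in each Cre library, and 2 had no count in either. The lincRNA 4930471C04Rik had 29 and 48 counts in GFP and Stoml3, a membrane protein of olfactory neurons, had 21 and 57. Against a floor of 3 counts per library, they were at least 11.8-fold and at least 11.9-fold lower. Gucy1a1, a subunit of the nitric oxide receptor guanylate cyclase, had 2.17 and 2.23 CPM in GFP and 0.182 and 0.0917 CPM in Cre. It stood apart from the rest in that wild-type cells had 1.02 and 1.97 CPM, near the GFP level. Gm26777 had 1.24 and 1.35 CPM in GFP and 0 and 0.0917 CPM in Cre.

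**Figure D1:**
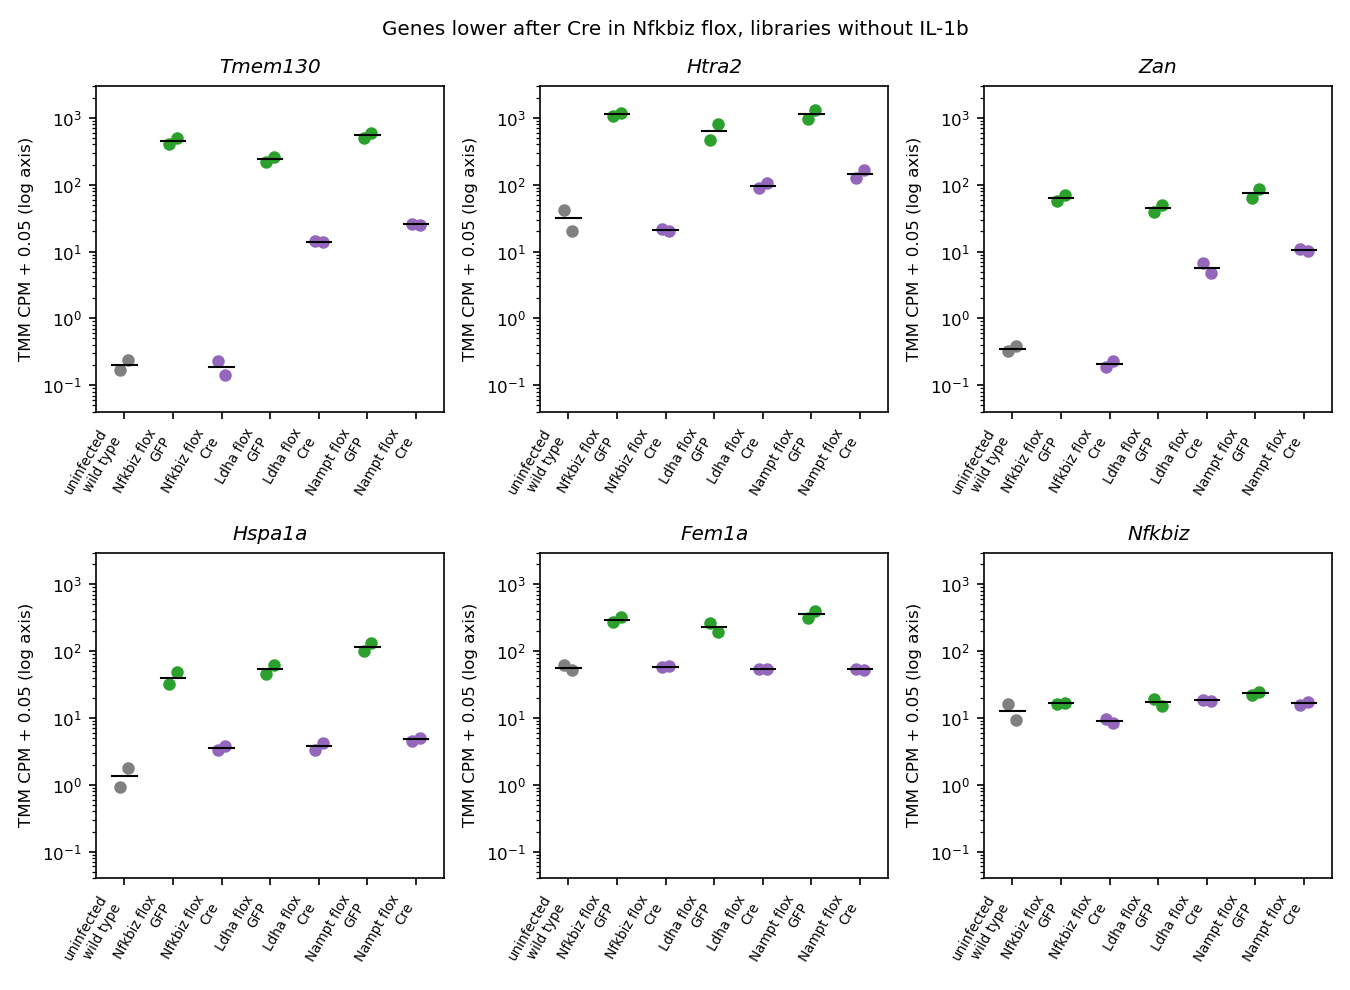
Level of 6 lowered genes in each library without IL-1b, as TMM-normalized CPM plus 0.05 on a log axis, for untreated wild type and for GFP and Cre in NFKBIZ flox, LDHA flox and NAMPT flox, with 2 libraries per group as points and their mean as a line. Tmem130 is at 402 and 496 CPM in NFKBIZ flox GFP, at 0.182 and 0.0917 CPM in NFKBIZ flox Cre and at 0.120 and 0.186 CPM in untreated wild type.

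Hspa1a and Hspa1b, which encode the inducible heat shock protein HSP70, were also among the lowered genes. Hspa1a (chr17:34969190-34972156, minus strand) had 32.5 and 48.0 CPM in GFP and 3.29 and 3.71 CPM in Cre, a log2 fold change of -3.54 ± 0.19 (SE, edgeR adjusted p = 4.1e-07). Hspa1b (chr17:34956436-34959238, minus strand) had 65.4 and 90.0 CPM in GFP and 12.0 and 10.4 CPM in Cre (-2.81 ± 0.16 SE). Wild-type cells had 0.870 and 1.75 CPM of Hspa1a and 7.05 and 6.68 CPM of Hspa1b, so that here the Cre libraries stayed above both wild-type libraries. The genes are near-identical copies and only uniquely aligned reads were counted, so the split between them is uncertain. Their promoters are printed because the genes moved together. The sequences are from RefSeq (GRCm38.p6), the 200 bases before the start, 5′ to 3′ on the gene's strand, with the heat shock element core GAANNTTC in capitals where found on either strand.
Hspa1a chr17:34972157-34972356 (minus strand): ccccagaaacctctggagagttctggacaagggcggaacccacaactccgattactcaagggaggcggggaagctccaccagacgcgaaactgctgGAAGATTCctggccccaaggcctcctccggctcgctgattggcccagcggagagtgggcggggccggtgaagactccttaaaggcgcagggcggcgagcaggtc
Hspa1b chr17:34959239-34959438 (minus strand): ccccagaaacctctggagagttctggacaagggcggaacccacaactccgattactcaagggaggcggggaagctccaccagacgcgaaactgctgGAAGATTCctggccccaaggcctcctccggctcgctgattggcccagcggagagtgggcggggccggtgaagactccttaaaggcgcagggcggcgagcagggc
The windows shared 199 of 200 bases and held 1 match each. The core was found in 5.36% of 32851 promoter windows of this length, and in 2 of the 18 lowered genes that had an entry, which were these genes. It was also found in 1 of the 15 raised genes with an entry, Top2a. Nfkbiz, Htra2, Bcas1, Lipg and 4930471C04Rik had no entry.

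The lowered genes were then followed in libraries that did not enter the comparison. In 4 GFP libraries of LDHA flox and NAMPT flox, without IL-1b, 21 of the 23 were higher than in the 2 untreated wild-type libraries (edgeR, library set as covariate), where 6.04% of 15288 genes were called higher, and Gucy1a1 and Nfkbiz were not called. In the Cre libraries of those lines, 7 of the 19 that could be tested were higher than in wild type (Bcas1, Hspa1a, Hspa1b, Htra2, Nat8f5, Tmem130 and Zan), where 12.0% of 15464 genes were called higher. This second count rose in each fit that left only 1 wild-type library. In library set 2 alone and without wild-type replicate 1, some lowered genes were also called lower than in wild type. Library by library, all 6 GFP libraries of the floxed lines lay above both wild-type libraries in 21 of the 22 lowered genes other than Nfkbiz. The 6 include the NFKBIZ flox GFP libraries on which the genes were picked, and the share of all genes that lay so was not counted. Wild-type cells differ from these cultures in genotype as well as in virus, so virus and line cannot be told apart here.

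The same genes were lower with Cre in the other floxed lines. Cre effects within those lines came from a fit of the 12 floxed libraries without IL-1b, with library set as a covariate (the 12-library fit). In LDHA flox, 21 of the 23 were called lower beside 4.39% of all genes, with Gm26777 and Nfkbiz as the exceptions, and in NAMPT flox all 23 were called lower beside 8.14%. Without Nfkbiz, the median log2 fold change of the other 22 was -2.46 in LDHA flox and -2.79 in NAMPT flox. Tmem130 had 14.4 and 13.6 CPM in LDHA flox Cre and 25.96 and 24.74 CPM in NAMPT flox Cre, well above the 0.182 and 0.0917 CPM of NFKBIZ flox Cre, and 222 to 590 CPM in the GFP libraries of these lines. In 14 of the 22 genes all 4 Cre libraries of the other lines lay above both NFKBIZ flox Cre libraries. That count leans upwards, since the genes were picked on their low level in NFKBIZ flox Cre, and its share over all genes was not counted. The difference was tested as the Cre effect in NFKBIZ flox minus the mean of the other 2 lines, over 12 libraries with library set as a covariate. Of 15460 genes, 820 were called (5.30%). Among the lowered genes 10 had a larger fall in NFKBIZ flox (Tmem130, Htra2, Zan, Bcas1, Nat8f5, Rab3d, Lipg, Hdac4, Vps37d and Nfkbiz) and Hspa1b had a smaller one. Because the lowered genes were picked on the same NFKBIZ flox libraries, this count leans towards larger falls. Tmem130 fell by 7.37 more on the log2 scale (edgeR adjusted p = 1.8e-09) the difference for Htra2 was -2.95 (edgeR adjusted p = 1.4e-08), and Fem1a differed by 0.08 without a call.

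**Figure D2:**
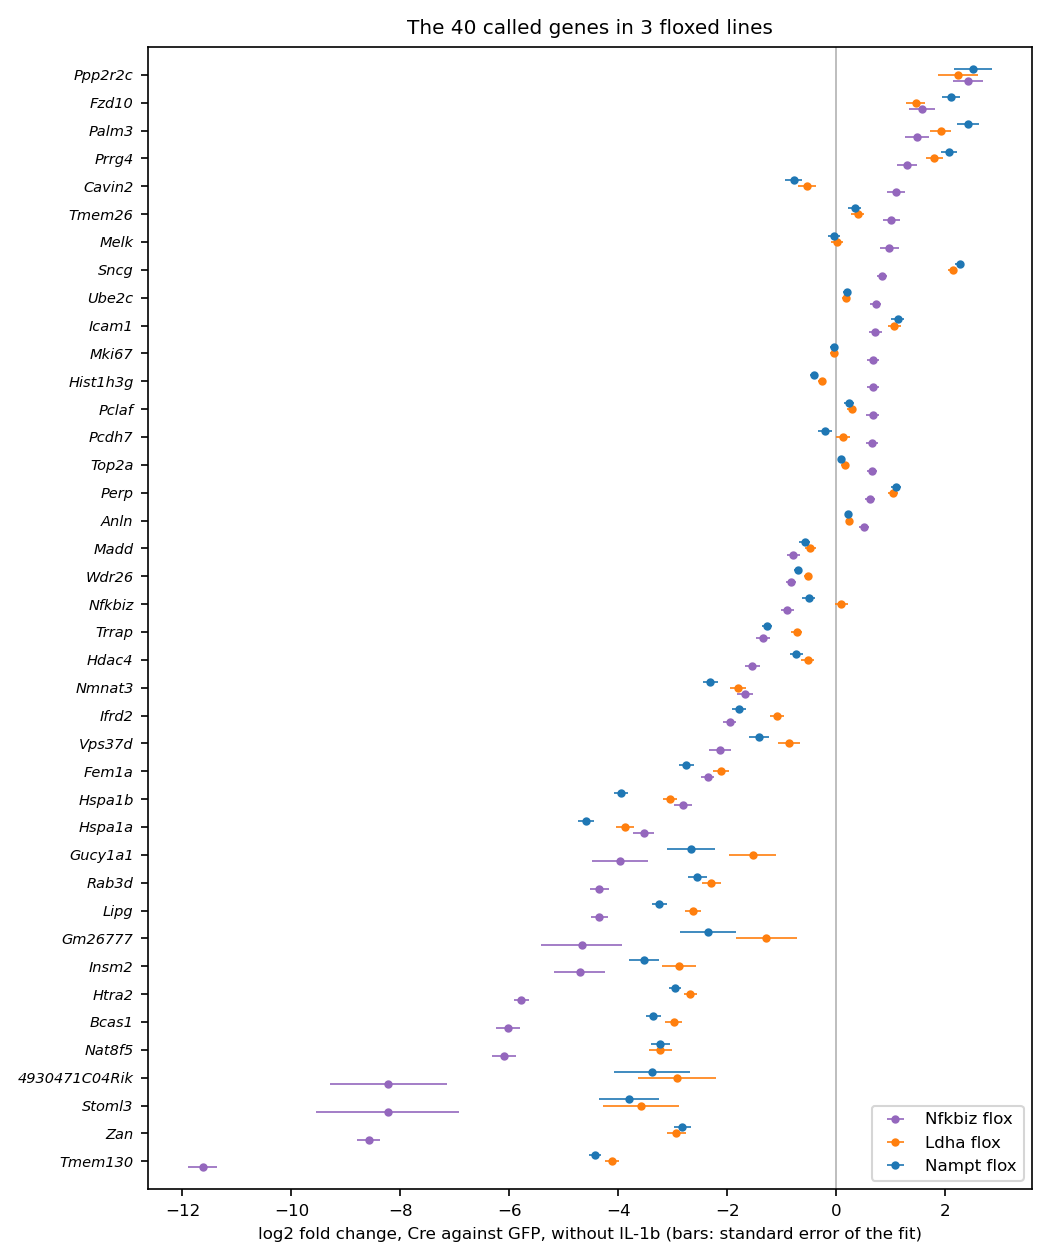
Log2 fold change of Cre against GFP without IL-1b (± SE) for the 40 called genes in NFKBIZ flox, LDHA flox and NAMPT flox, with 1 point per gene and line. Most lowered genes lie below 0 in every line and furthest in NFKBIZ flox (Tmem130 at -11.63 against -4.11 and -4.43), while the fitted values of 4930471C04Rik and Stoml3, which have 0 counts in both NFKBIZ flox Cre libraries, depend on the prior count and are not bounds.

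IL-1b raised all of the lowered genes in GFP cultures of the other floxed lines. The response to IL-1b in the Cre cultures of those lines was not tested. In the GFP libraries of LDHA flox and NAMPT flox, all 23 were called higher with IL-1b, beside 26.5% of 14568 genes higher and 27.9% lower. The 22 other than Nfkbiz rose by 1.14 to 2.73 on the log2 scale, with a median of 2.21. In NFKBIZ flox with IL-1b, all 23 were lower in Cre, where 17.4% of all genes were called, 8.16% higher and 9.20% lower. Tmem130 then had 1430 and 1342 CPM in GFP and 0.688 and 0.352 CPM in Cre. Htra2 had 3736 and 3536 CPM in GFP and 26.9 and 31.0 CPM in Cre. The GFP levels of both genes were thus higher with IL-1b than without it, and the Cre levels stayed low. The fall with Cre was larger with IL-1b than without it for 14 of the 23 lowered genes by the test of the difference, which called 5.19% of all genes, and among them Fem1a differed by -1.71 (edgeR adjusted p = 6.8e-05). For Tmem130 and Zan, whose Cre libraries were already near 0, the difference was not called.

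The raised genes were smaller in change and of several kinds. Among them 3 belonged to the list of DNA replication and mitosis genes. Top2a (chr11:98992943-99024189, minus strand), the topoisomerase that untangles replicated chromosomes, had 54.3 and 52.7 CPM in GFP and 86.4 and 84.1 CPM in Cre, a log2 fold change of 0.66 ± 0.09 (SE, edgeR adjusted p = 0.0056). Ube2c (chr2:164769898-164778822, plus strand), the ubiquitin-conjugating enzyme of the anaphase-promoting complex, had 25.5 and 24.9 CPM in GFP and 42.3 and 41.7 CPM in Cre (0.73 ± 0.11 SE, edgeR adjusted p = 0.0092). Mki67 (chr7:135689788-135716379, minus strand), the proliferation marker Ki-67, had 87.4 and 77.0 CPM in GFP and 137 and 127 CPM in Cre (0.67 ± 0.11 SE, edgeR adjusted p = 0.019). In each of these both Cre libraries lay above both GFP libraries. Anln, a scaffold of the cleavage furrow, Melk, a mitotic kinase, Pclaf, a factor bound to the replication clamp, and the replication-dependent histone gene Hist1h3g were raised as well, with Cre at 143%, 197%, 159% and 159.6% of the GFP level. Reads of Top2a, Ube2c, Melk and Pclaf may include a gene on the other strand, and histone H3 genes have near-identical copies.

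Promoters of the called mitosis genes are shown because many genes of this phase carry a CCAAT box and a cell cycle genes homology region. The sequences are the 200 bases before the start in RefSeq (GRCm38.p6), 5′ to 3′ on the gene's strand. Capitals mark the CCAAT box and TTTGAA, the core of the homology region, on either strand.
Top2a chr11:99024190-99024389 (minus strand): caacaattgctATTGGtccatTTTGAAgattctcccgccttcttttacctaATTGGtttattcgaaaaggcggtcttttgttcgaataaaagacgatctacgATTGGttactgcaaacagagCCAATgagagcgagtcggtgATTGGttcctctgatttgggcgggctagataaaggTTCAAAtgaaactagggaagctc
Ube2c chr2:164769729-164769928 (plus strand): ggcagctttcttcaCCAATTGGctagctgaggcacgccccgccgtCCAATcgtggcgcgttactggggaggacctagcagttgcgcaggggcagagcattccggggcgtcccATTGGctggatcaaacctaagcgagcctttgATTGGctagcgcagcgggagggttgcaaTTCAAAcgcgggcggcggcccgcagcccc
Mki67 chr7:135716380-135716579 (minus strand): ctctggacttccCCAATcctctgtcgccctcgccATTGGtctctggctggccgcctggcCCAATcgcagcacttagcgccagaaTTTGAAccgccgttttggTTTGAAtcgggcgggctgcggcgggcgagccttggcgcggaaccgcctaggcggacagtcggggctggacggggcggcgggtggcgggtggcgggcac
Top2a held 5 matches to CCAAT and 2 to TTTGAA, Ube2c held 5 and 1, and Mki67 held 3 and 2, with 1 overlapping pair of CCAAT matches in Ube2c. Over 32851 promoter windows, 29.3% held CCAAT and 12.5% held TTTGAA. Of the 15 raised genes with an entry, CCAAT was found in 5 (Cavin2, Mki67, Pclaf, Top2a and Ube2c) and TTTGAA in 4 (Mki67, Tmem26, Top2a and Ube2c). Of the 18 lowered genes with an entry, 6 held CCAAT and 2 held TTTGAA. Hist1h3g and Perp had no entry.

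Across the whole list of DNA replication and mitosis genes, 3 of 50 were called higher and none lower. The median log2 fold change was 0.41, beside -0.002 over all genes tested, and 47 of the 50 were above 0. At an unadjusted p under 0.05, 29 were higher, beside 3.84% of all genes higher and 2.08% lower. In 38 of the 50 the Cre libraries lay above the GFP libraries without overlap, while 34.8% of all genes did not overlap in either direction. Rrm2, a subunit of ribonucleotide reductase, had 90.4 and 103 CPM in GFP and 173 and 134 CPM in Cre and narrowly missed the call (log2 fold change 0.66 ± 0.12 SE, edgeR adjusted p = 0.0503). The 3 calls were lost without GFP replicate 1, without GFP replicate 2 or without Cre replicate 1, and of the 3 only Top2a was kept without Cre replicate 2. With IL-1b, 25 of the 50 were called higher in Cre and 4 lower, beside 8.16% and 9.20% of all genes, with a median of 0.46.

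The level of most of these genes was lower in this line than in the other floxed lines. In 49 of the 50 genes both NFKBIZ flox GFP libraries lay below all 4 GFP libraries of LDHA flox and NAMPT flox, and in 48 so did both NFKBIZ flox Cre libraries. The share of all genes that lay so was not counted, so these counts do not set the list apart from other genes. Mki67 had 310 to 407 CPM in those 4 GFP libraries. In LDHA flox and NAMPT flox the median log2 fold change of the list with Cre was 0.10 and 0.09, with 8 and 10 members called higher beside 5.05% and 9.20% of all genes. The Cre effect was larger in NFKBIZ flox than in the mean of the other lines for 16 of the 50. The test called 5.30% of all genes in either direction. The Cre effect was compared in the same way for single genes. It was larger by 0.54 for Top2a (edgeR adjusted p = 0.0011) and by 0.72 for Mki67 (edgeR adjusted p = 0.00028). Both libraries of each NFKBIZ flox group came from library set 2. The 2 wild-type libraries, 1 from each set, had 235 and 94.0 CPM of Mki67, so the level in uninfected cells varied more than the difference between Cre and GFP.

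**Figure D3:**
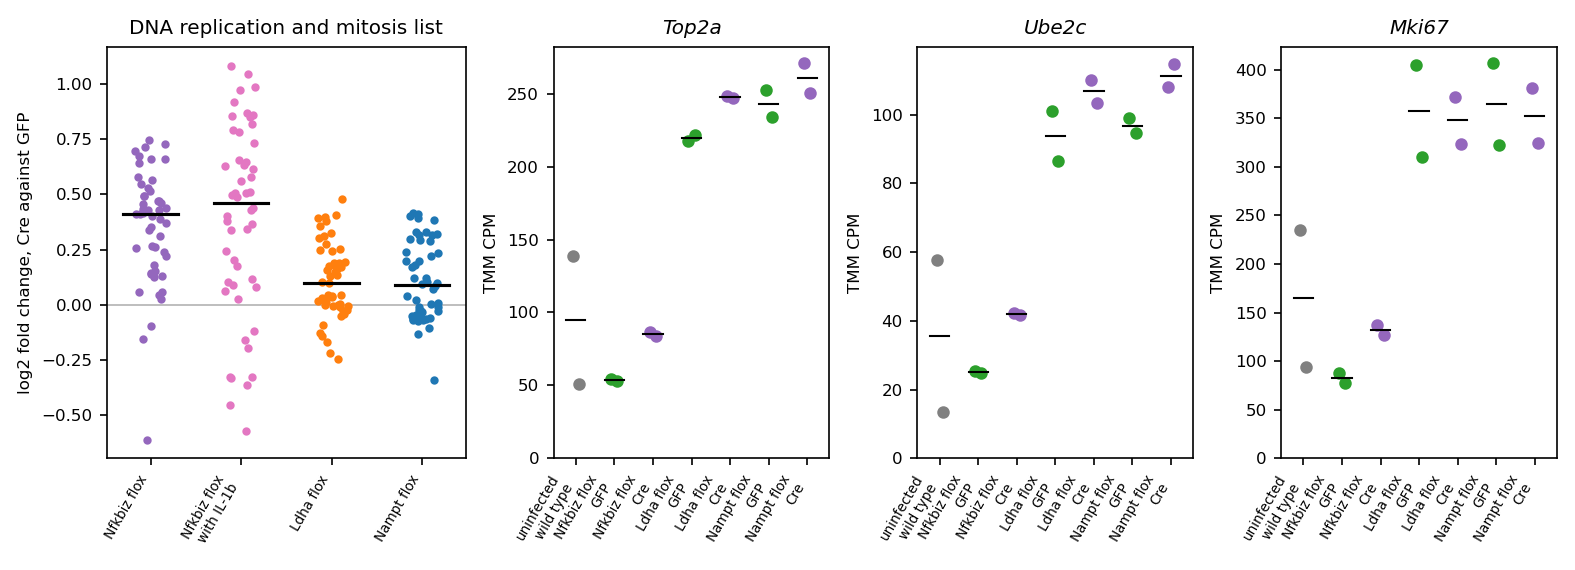
Left, log2 fold change of Cre against GFP for the 50 DNA replication and mitosis genes, 1 point per gene with the median as a line, in NFKBIZ flox without and with IL-1b, LDHA flox and NAMPT flox, and right, CPM of Top2a, Ube2c and Mki67 in each library without IL-1b. The list's median is 0.41 in NFKBIZ flox without IL-1b and 0.10 and 0.09 in LDHA flox and NAMPT flox, while the CPM levels of NFKBIZ flox lie below those of the other floxed lines.

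The other raised genes encode membrane, adhesion and signalling proteins. Ppp2r2c, a regulatory subunit of protein phosphatase 2A, had 0.753 and 0.801 CPM in GFP and 4.75 and 3.67 CPM in Cre (log2 fold change 2.42 ± 0.28 SE, edgeR adjusted p = 0.0011), the largest rise of the comparison. Sncg, or γ-synuclein, had 27.4 and 26.9 CPM in GFP and 49.3 and 49.0 CPM in Cre (0.85 ± 0.09 SE, edgeR adjusted p = 0.00063). Icam1, the adhesion receptor for leukocyte integrins and a classical NF-κB target, had 15.1 and 15.8 CPM in GFP and 27.6 and 23.6 CPM in Cre (0.72 ± 0.12 SE, edgeR adjusted p = 0.024). Perp, a desmosome protein and p53 target, had 46.4 and 48.6 CPM in GFP and 74.4 and 73.2 CPM in Cre (0.63 ± 0.09 SE, edgeR adjusted p = 0.012). In these 4 genes the Cre libraries were both above the GFP libraries.

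Fzd10, a Wnt receptor, Palm3, a membrane-bound paralemmin, and Prrg4, a vitamin K-dependent membrane protein, rose from 1.51 to 3.62 CPM in GFP to 4.81 to 8.49 CPM in Cre. Cavin2, a coat protein of caveolae, had 5.54 and 5.44 CPM in GFP and 12.6 and 11.2 CPM in Cre. Tmem26 had 11.5 and 12.9 CPM in GFP and 28.0 and 21.8 CPM in Cre, and Pcdh7, a protocadherin, had 10.8 and 12.4 CPM in GFP and 18.1 and 18.8 CPM in Cre. The call of Pcdh7 was lost with voomWithQualityWeights (limma, adjusted p = 0.063) and in a fit of the 4 libraries alone. Reads of Palm3, Cavin2, Ppp2r2c and Icam1 may include a gene on the other strand.

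In LDHA flox 9 of the 17 raised genes were also called higher with Cre and 1 was lower, beside 5.05% and 4.39% of all genes. In NAMPT flox 8 were higher and 2 lower, beside 9.20% and 8.14%. The genes higher in both were Anln, Fzd10, Icam1, Palm3, Perp, Ppp2r2c, Prrg4 and Sncg. Sncg rose more in those lines (log2 fold change 2.14 and 2.27), and the difference was -1.35 (edgeR adjusted p = 2.2e-06). Cavin2 went the other way there, with log2 fold changes of -0.54 in LDHA flox and -0.78 in NAMPT flox, of which the second was called, and its Cre effect was 1.77 larger in NFKBIZ flox (edgeR adjusted p = 0.0001). Hist1h3g was lower with Cre in both other lines. Over the raised genes the Cre effect was larger in NFKBIZ flox for 9 and smaller for 2, beside 5.30% of all genes in either direction. These counts lean towards larger effects because the genes were picked on the same libraries.

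With IL-1b, 15 of the 17 raised genes were again called higher in Cre, beside 8.16% of all genes. Pcdh7 was lower in Cre there, with 102 and 107 CPM in GFP against 68.4 and 75.5 CPM in Cre, and the change of direction was called (difference -1.21, edgeR adjusted p = 0.00044). Icam1 had 188 and 205 CPM in GFP and 192 and 221 CPM in Cre with IL-1b, and its Cre effect was smaller than without IL-1b (difference -0.66, edgeR adjusted p = 0.031). Both genes thus had higher levels with IL-1b in GFP and in Cre, and the Cre rise of resting cells was not seen on top of it. Palm3 went up further, with 0.806 and 0.613 CPM in GFP and 12.1 and 15.2 CPM in Cre.

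Of 18 inflammatory genes tied to IκB-ζ and tested in resting cells, edgeR and limma called 0, while DESeq2 called 2 lower, Ptgs2 and Ccl2. At an unadjusted p under 0.05, 5 were lower and 0 higher by edgeR, beside 2.08% and 3.84% of all genes. The median log2 fold change was -0.23. With IL-1b, in the same line, 14 of the 18 were called lower in Cre, beside 9.20% of all genes, with a median of -3.30. Il6, a cytokine of joint inflammation, had 0.354 and 0.422 CPM in GFP and 0.0913 and 0 CPM in Cre, against 33.5 and 33.8 CPM in GFP with IL-1b. Lcn2, an iron-binding acute-phase protein, had 36.0 and 37.0 CPM in GFP and 25.97 and 28.88 CPM in Cre (log2 fold change -0.42 ± 0.16 SE, edgeR adjusted p = 0.62). Resting levels were thus low enough for Il6 that a fall could scarcely be measured at this depth, which was not so for Lcn2.

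Ptgs2, the inducible prostaglandin synthase, came closest to a call. It had 19.4 and 24.8 CPM in GFP and 13.3 and 10.4 CPM in Cre (log2 fold change -0.91 ± 0.17 SE, edgeR adjusted p = 0.0503), and DESeq2 called it (adjusted p = 9.0e-05). The groups did not overlap, and Ptgs2 had log2 fold changes of -0.56 in LDHA flox and -1.01 in NAMPT flox. Ccl2, a monocyte chemoattractant, had 1.51 and 1.47 CPM in GFP and 0.411 and 0.413 CPM in Cre (-1.85 ± 0.51 SE, edgeR adjusted p = 0.30), and DESeq2 called it (adjusted p = 0.0038). In LDHA flox and NAMPT flox its log2 fold changes were above 0, and the difference was called (-2.69, edgeR adjusted p = 0.00047). Cxcl1 and Nos2 were under 1 CPM in all 4 libraries.

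Other inflammatory lists showed no edgeR call either. For 31 chemokines and cytokines the median was -0.11 without IL-1b and -0.82 with it. At an unadjusted p under 0.05, 4 were lower, and DESeq2 called 1 lower. Over all genes, 3.84% were higher and 2.08% lower at that unadjusted p. For 23 acute-phase and complement genes the medians were -0.07 and -1.63, with 4 lower and 1 higher unadjusted and 1 higher by DESeq2. Among 14 NF-κB subunits, IκB proteins and kinases only Nfkbiz was called, and among 14 feedback regulators none was, with 1 higher and 1 lower unadjusted and 0 by DESeq2. In 28 interferon-stimulated genes the median was 0.26, with 0 called by edgeR or DESeq2 and 2 higher unadjusted. In LDHA flox the median was 1.19, and 23 of the 28 were called higher with Cre, beside 5.05% of all genes. In NAMPT flox the median was 0.35, with 7 called higher and 1 lower, beside 9.20% and 8.14%. The Cre effect was smaller in NFKBIZ flox for 4 of the 28. For 17 genes of MHC class I antigen presentation the median was 0.25, with 0 called by either tool and 3 higher unadjusted.

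Cartilage matrix genes showed where this line stood apart from the others. Of 30 tested, edgeR and DESeq2 called 0 in NFKBIZ flox. At an unadjusted p under 0.05, 3 were lower, beside 2.08% of all genes, and the median was -0.13. In LDHA flox 21 and in NAMPT flox 22 of the same genes were called lower with Cre, beside 4.39% and 8.14% of all genes. The medians were -0.45 and -0.54. These calls came from the 12-library fit, which called 236 genes in NFKBIZ flox where the fit of its 8 libraries called 40. The counts of calls are therefore not directly comparable between NFKBIZ flox and the other lines. The difference between the lines was called for 13 of the 30, all with a higher value in NFKBIZ flox, beside 5.30% of all genes in either direction. Col27a1, a fibrillar collagen of cartilage, had 1190 and 1343 CPM in GFP and 1125 and 1026 CPM in Cre (log2 fold change -0.25 ± 0.11 SE, edgeR adjusted p = 0.79), and its difference from the other lines was 0.55 (edgeR adjusted p = 0.0028). Acan, the main proteoglycan of cartilage, had 9148 and 11570 CPM in GFP and 10900 and 7884 CPM in Cre, so the groups overlapped. Col2a1, the main collagen of cartilage, had 53760 and 62250 CPM in GFP and 56260 and 45890 CPM in Cre, with overlap as well. For Acan and Col2a1 the difference between lines was not called (0.47 and 0.28). Comp, a matrix glycoprotein, had 1424 and 1577 CPM in GFP and 1297 and 1148 CPM in Cre, with edgeR adjusted p = 0.61.

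For 33 metalloproteinases and their inhibitors the median was 0.001, with 0 called by edgeR, 1 higher unadjusted and 1 higher by DESeq2. Mmp13, the collagenase of cartilage, had 49.8 and 48.9 CPM in GFP and 50.1 and 48.2 CPM in Cre, and its log2 fold change was -0.02 ± 0.15 (SE, edgeR adjusted p = 1.0). In the other lines Mmp13 was lower with Cre (-0.54 and -1.36), and the difference of 0.94 was called (edgeR adjusted p = 1.7e-05). Mmp3, which cleaves proteoglycan, had 1.86 and 2.78 CPM in GFP and 3.06 and 3.03 CPM in Cre, with edgeR adjusted p = 0.90. The 5 genes with the smallest p among those with a lower value in NFKBIZ flox than in the other lines were Tmem130, Htra2, Sncg, Zan and Htra1, and on the other side they were Nampt and Ldha, which are the deleted genes of those lines, Mest, Rspo3 and Hapln1. Htra1, a secreted protease of cartilage matrix, had 34.9 and 36.0 CPM in GFP and 37.9 and 34.9 CPM in Cre, while it rose with Cre by 1.06 and 1.26 on the log2 scale in the other lines (difference -1.13, edgeR adjusted p = 2.6e-06).

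Growth and stress lists held few calls. Of 38 p53 targets, Perp was called higher, and the median was 0.16. At an unadjusted p under 0.05, 10 were higher and 0 lower, beside 3.84% and 2.08% of all genes. In LDHA flox and NAMPT flox 20 of the 38 were called higher in each, beside 5.05% and 9.20% of all genes. Of 16 G1 cyclins, kinases and inhibitors 0 were called by edgeR or DESeq2, with 3 higher and 1 lower unadjusted, beside 3.84% and 2.08%. Ccnd1, or cyclin D1, had 112 and 97.4 CPM in GFP and 142 and 145 CPM in Cre (log2 fold change 0.44 ± 0.11 SE, edgeR adjusted p = 0.22), and the other lines had a larger effect (difference -0.83, edgeR adjusted p = 5.4e-05). Among 23 immediate early genes 7 were lower unadjusted, beside 2.08% of all genes. For this list edgeR called 0 and DESeq2 called 1 lower, and the median was -0.18. Egr1 had 67.2 and 81.2 CPM in GFP and 58.5 and 42.0 CPM in Cre, and Fos had 7.18 and 8.30 CPM in GFP and 5.11 and 5.04 CPM in Cre, with edgeR adjusted p of 0.23 and 0.25. With IL-1b 15 of the 23 were called lower, beside 9.20% of all genes.

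Glycolysis, hypoxia and NRF2 genes differed by IL-1b. For 22 glycolysis and lactate genes the median was 0.08 without IL-1b and -0.71 with it, for 20 hypoxia response genes 0.07 and -0.98, and for 23 NRF2 and glutathione genes -0.07 and -1.23. Without IL-1b edgeR and DESeq2 called 0 in each of these lists. At an unadjusted p under 0.05, 1 and 2 were higher and 5 lower, beside 3.84% of all genes higher and 2.08% lower. With IL-1b 18, 18 and 19 members were called lower, beside 9.20% of all genes. Ldha, the lactate dehydrogenase subunit that the study follows, had 1420 and 1288 CPM in GFP and 1362 and 1545 CPM in Cre without IL-1b, so the groups overlapped. With IL-1b it had 2002 and 1996 CPM in GFP and 1136 and 1148 CPM in Cre, and the Cre effect differed by -0.92 (edgeR adjusted p = 0.0035). In the 11 lists not described above, edgeR called 0 of 225 members and DESeq2 called 1 higher, and the medians lay between -0.11 and 0.05. At an unadjusted p under 0.05, 13 were higher and 9 lower, beside the same shares of all genes.

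**Figure D4:**
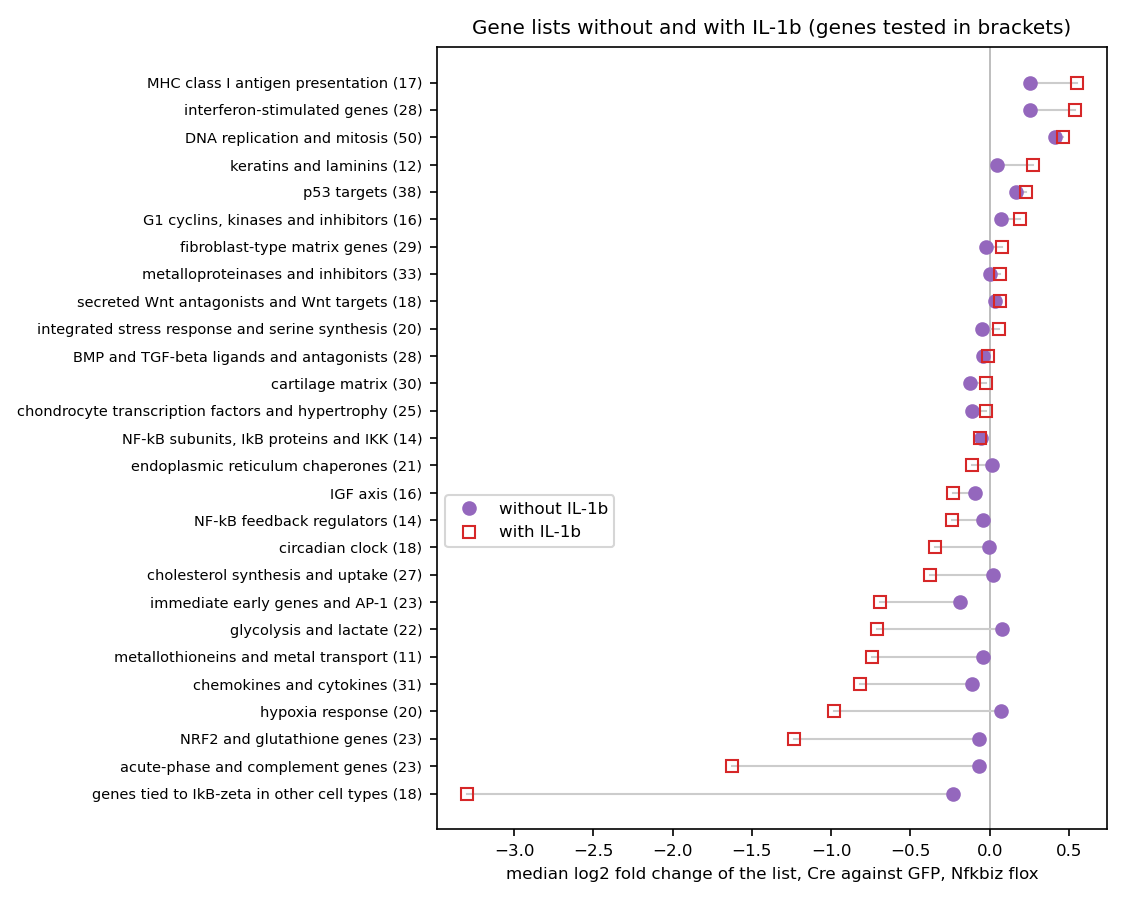
Median log2 fold change of Cre against GFP in NFKBIZ flox for 27 gene lists, 1 row per list, without and with IL-1b. Without IL-1b the medians lie between -0.23 (genes tied to IκB-ζ) and 0.41 (DNA replication and mitosis), and with IL-1b the genes tied to IκB-ζ lie at -3.30.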

How the data were processed

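RNA of 32 libraries was ribosomal RNA-depleted (KAPA Ribo-Erase) and sequenced by the authors, aligned with STAR to Ensembl release 76 (GRCm38) and counted with featureCounts from uniquely aligned reads. The submitters' processing notes give STAR 2.0.4b and featureCounts 1.45, which differ from the versions in the study's methods. The authors deposited raw counts, CPM (in all 32 libraries the count over the total) and RPKM, and only the counts were used. Whether counting used strand is not given in the sources used here.

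Groups came from the labels. Genes above 1 CPM in at least 1 of the 8 NFKBIZ flox libraries were tested, without 355 ribosomal RNA genes, with edgeR 4.0.16 (TMM, quasi-likelihood, two-sided, 4 groups of 2), called at a Benjamini-Hochberg adjusted p of 0.05 or less. The study's own method, limma 3.58.1 voomWithQualityWeights, and DESeq2 1.42.0 were alternatives, in R 4.3.3. GENCODE M21 named 40340 of 41388 genes. Each kind of fit was tested on simulated data. Levels of single genes are CPM scaled by TMM over the 24 floxed and 2 untreated wild-type libraries. Marker sums are CPM without TMM scaling.

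The 27 gene lists, 9 marker lists and comparisons were chosen with earlier results of these data known. Named were Nfkbiz, its neighbours within 500 kb, the 12 largest protein-coding changes each way above 5 CPM, the 5 smallest p each way, up to 4 members of each list, genes the study follows and the 5 genes each way that differed most clearly from the other lines. The remaining called genes were named after their values were seen. The comparisons with untreated wild type, and the fit without the Cre + IL-1b libraries, were added after seeing the data. Counting limits the precision of genes with few counts. One gene's own values are not reported here.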

Additional observations from a re-analysis of the deposited data

Results flagged for a closer look

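Effects of Cre that differed with IL-1b stand out in 797 genes, by the edgeR test of the interaction, which takes the log2 fold change with IL-1b minus that without it. Among the 40 called genes, the difference was below 0 for Gucy1a1 (-6.13), Nfkbiz (-2.03), Lipg (-1.79), Fem1a (-1.71), Rab3d (-1.40), Ifrd2 (-1.31), Hspa1b (-1.28) and Hspa1a (-1.25). It was also below 0 for Htra2 (-1.21), Pcdh7 (-1.21), Madd (-1.19), Nmnat3 (-1.10), Wdr26 (-0.93), Hdac4 (-0.87), Trrap (-0.84) and Icam1 (-0.66). Among the 40 called genes, the difference was above 0 for Palm3 (2.76), Cavin2 (1.70), Prrg4 (1.56), Fzd10 (1.31) and Sncg (0.63). Among the other genes named, the difference was below 0 for Nos2 (-4.41), Lcn2 (-4.36), Mmp3 (-3.07), Cxcl1 (-2.68), Ptgs2 (-1.96), Mmp13 (-1.50), Nampt (-1.16) and Ldha (-0.92). It was also below 0 for Rspo3 (-0.90) and Fos (-0.84). Among the other genes named, the difference was above 0 for Ccnd1 (1.54) and Col27a1 (0.61). The adjusted p of those named was at most 0.048. Of the called genes, the largest difference in size, that of Gucy1a1, rests on 0 counts in both Cre libraries with IL-1b and depends on the prior count.

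Effects of Cre that differed between floxed lines stand out in 820 genes, by the edgeR test of the log2 fold change in NFKBIZ flox minus the mean of those in LDHA flox and NAMPT flox, without IL-1b. Among the 40 called genes, the difference was below 0 for Tmem130 (-7.37), Zan (-5.71), Htra2 (-2.95), Nat8f5 (-2.87), Bcas1 (-2.85), Rab3d (-1.93), Lipg (-1.41) and Sncg (-1.35). It was also below 0 for Vps37d (-0.98), Hdac4 (-0.91), Nfkbiz (-0.68) and Perp (-0.45). Among the 40 called genes, the difference was above 0 for Cavin2 (1.77), Hist1h3g (1.01), Melk (0.99), Mki67 (0.72), Pcdh7 (0.71), Hspa1b (0.70), Tmem26 (0.65) and Top2a (0.54). It was also above 0 for Ube2c (0.54) and Anln (0.29). Among the other genes named, the difference was below 0 for Ccl2 (-2.69), Htra1 (-1.13), Fos (-0.98) and Ccnd1 (-0.83). Among the other genes named, the difference was above 0 for Nampt (1.75), Ldha (1.53), Rspo3 (1.45), Mest (1.06), Hapln1 (0.95), Mmp13 (0.94) and Col27a1 (0.55). The adjusted p of those named was at most 0.04. The values of Ldha and Nampt come with their deletion in the other lines. No group holds more than 2 libraries, so no test for single outlying libraries was made.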

How the results depend on the processing

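The 40 calls numbered 35 to 44 with voomWithQualityWeights, RLE scaling, filterByExpr, ribosomal protein genes left out, a filter on the 4 libraries or a fit of the 4 libraries alone, where Pcdh7 and Gm26777 lost their calls with voomWithQualityWeights and, with Stoml3, Melk and Pclaf, in the 4 libraries alone. The count rose to 71 with DESeq2, to 170 without a filter on low counts and to 236 when the 12 floxed libraries without IL-1b were fitted together, where all 40 remained called, and was 52 without the Cre + IL-1b libraries. Leaving out 1 library gave 21 to 32 calls, and 23 without GFP replicate 1 or Cre replicate 1. Nfkbiz kept its direction, from -1.01 to -0.80, and lost its call without GFP replicate 2 (-0.86) and without Cre replicate 2 (-0.80). The 797 differences with IL-1b became 344 to 1892, the highest without Cre + IL-1b replicate 1. The 820 differences from the other lines became 442 without the library set term, 145 in library set 2 alone, 289 against LDHA flox alone and 463 to 1179 when 1 library was left out. The 7925 genes called for IL-1b in the GFP libraries became 5186 in library set 2 alone and 6999 to 7617 when 1 library was left out. The 21 lowered genes higher with the GFP virus than in wild type became 21 or 22, and the 7 higher with the Cre virus became 11 in library set 2 alone, 13 without wild-type replicate 1 and 9 without wild-type replicate 2. No called result reversed. The causes of these shifts were not tested.

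Replicate numbers follow accession order and pair nothing in the labels. Deviations of same-numbered GFP and Cre libraries correlated at -0.358 over 10655 genes. With the number as a replicate block 36 genes were called (13 higher, 23 lower), without Icam1, Anln, Pclaf and Hist1h3g, and 626 differences with IL-1b. At 2 libraries per group, small changes in genes of few counts lie beyond what these data can show.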
